A study of Mus musculus with 4 samples.

Results

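B cells sense the lipopolysaccharide (LPS) of Gram-negative bacteria through a pair of related receptor complexes, and the genes of this machinery were followed in activated B cells that lacked Aff3. The group held 10 genes: the receptors and partners Tlr4, Ly96, Cd14, Cd180 and Ly86, and the signalling genes Myd88, Ticam1, Irf5, Irak1 and Traf6. They were taken by name, as every non-control probe whose transcript accession belongs to one of these genes; the rule itself uses no measured value, although the genes were picked with earlier results of these data known. This gave 12 probes on 21 spots of each array, out of 39429 probes on 43020 gene spots. All 10 genes passed the filter on dim probes, which left 20637 features, meaning genes or unnamed transcripts, to be tested.

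The samples were 2 of Aff3-/- spleen B cells and 2 of Aff3+/- spleen B cells. The Aff3+/- cells therefore also carried 1 disrupted Aff3 allele, and no wild-type cells were among the samples. Aff3 belongs to the AF4/FMR2 family of nuclear factors, which act in transcription elongation. All 4 samples were CD43-negative mouse B cells cultured for 3 days in LPS (10 ug/mL) and IL-4 (10 ng/mL), so every value below comes from cells already under TLR4 stimulation, with no unstimulated sample beside them. The labels give neither the age or strain of the mice nor the kind of Aff3 allele, nor whether the replicates are different mice, and p-values here reflect only the spread among the samples given, which may be technical.

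TLR4 recognises LPS only when bound to MD-2, the product of Ly96, and CD14 hands LPS monomers to that complex. B cells carry in addition CD180 (RP105), which resembles TLR4 but lacks its signalling domain, bound to MD-1, the product of Ly86. Within the cell, TLR4 signals through a pair of adaptor branches: MyD88, which assembles IRAK kinases and the ubiquitin ligase TRAF6 to activate NF-kB and IRF5, and TRIF, the product of Ticam1, which leads to type I interferon. These are descriptions from earlier work on the pathway and not results of these arrays.

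RNA was labelled with Cy3 and read on 1-colour Agilent arrays, 1 sample to an array. Signals are given below as relative signal, the background-subtracted intensity divided by the 75th percentile of the same array, which lay between 1278 and 1355 intensity units. Each array had between 24942 and 25862 probes well above background and 0 saturated gene spots. The number of arrays limits the precision: 2 against 2 cannot go below p = 0.333 in a two-sided exact permutation test, so the comparison was made with limma fitted across all features. All 8 B cell markers looked for, among them Cd79a and Pax5, were well above background on every array. Of these 8, 7 had a fitted log2 difference (Aff3-/- minus Aff3+/-) below 0 and 1 above, with a median of -0.19 beside -0.011 over all features, and all 8 overlapped between genotypes. Their summed signal, relative to the array's 75th percentile, was 262.5 and 215.2 in Aff3-/- cells, against 254.1 and 229.9 in Aff3+/- cells, and its part in the results below was not tested. The Aff3 transcript was not analysed here, since no probe was matched to it by accession, so each direction rests on the labels.

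None of the 10 genes differed between Aff3-/- and Aff3+/- cells beyond the spread between replicates. With limma and Benjamini-Hochberg adjustment over all features, 0 of 10 passed the adjusted threshold of 0.05 (adjusted p = 1.00 for each), and 0 of the 10 had an unadjusted p under 0.05. Across all features 0% passed the adjusted threshold and 2.04% had an unadjusted p under 0.05. For 0 of the 10 genes did both Aff3-/- arrays lie above or below both Aff3+/- arrays, a separation seen in 19.5% of all features (8.35% with the Aff3-/- arrays higher and 11.2% with them lower). The same held for 0 of the 12 probes, beside 19.6% of all kept probes. By replicate number, both arrays numbered 1 lay above or below both arrays numbered 2 for 8 of the 10 genes, beside 64.3% of all features. A gene separated by number cannot also be separated by genotype, so the counts by number and by genotype are not independent. The fitted log2 difference, Aff3-/- minus Aff3+/-, was above 0 for 3 genes and below 0 for 7, with a median of -0.007, beside -0.011 over all features, of which 45.5% were above 0. In size the median difference of the 10 genes was 0.02, beside 0.07 over all features.

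**Figure D1:**
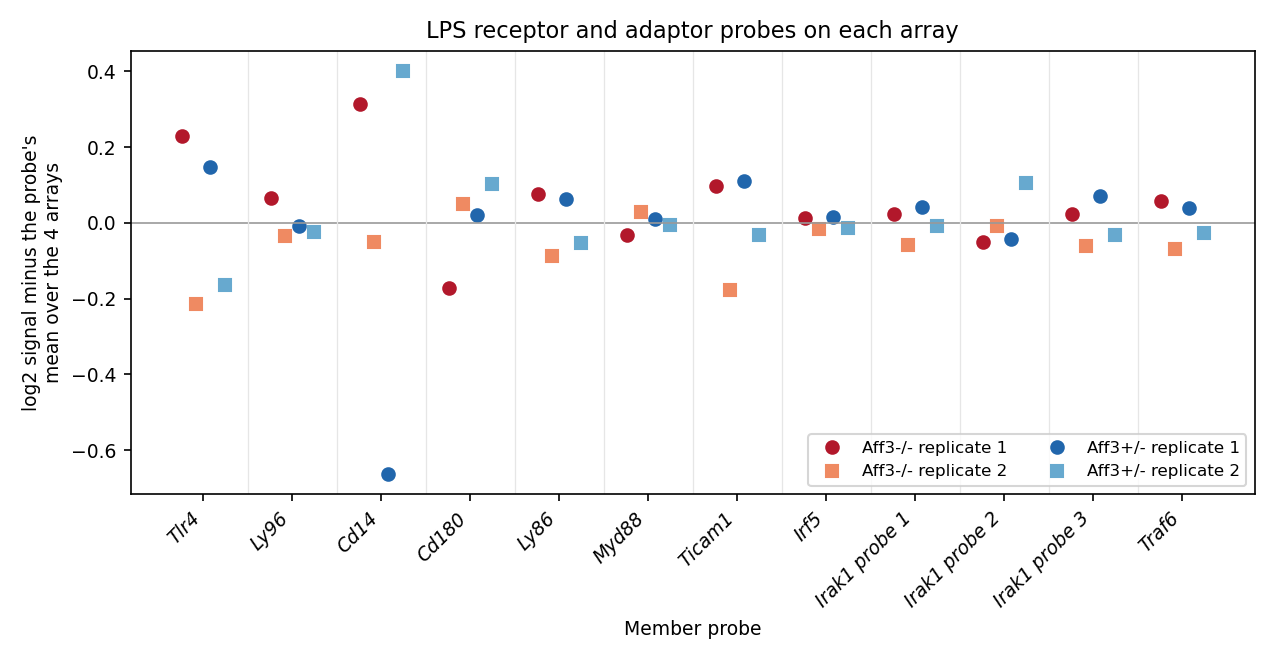
Each of the 12 member probes is plotted on the 4 arrays as the log2 signal minus that probe's own mean over the arrays, with Aff3-/- arrays in red and Aff3+/- arrays in blue, and circles for replicate 1 and squares for replicate 2. For 11 of the 12 probes the points lie within 0.25 of the probe's mean; the exception is Cd14, and no gene-level probe has both red points above or below both blue points.

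Among the receptors, Tlr4, the signalling chain of the LPS receptor, had relative signals of 0.376 and 0.276 in Aff3-/- cells, against 0.355 and 0.286 in Aff3+/- cells. In both genotypes replicate 1 was the brighter sample, and the Aff3-/- values enclosed the Aff3+/- values. The log2 difference was 0.02 ± 0.21 (SE, n = 2 per genotype; limma), and its 95% interval ran from 0.689-fold to 1.49-fold. Fewer cells that carry a transcript and less transcript per cell cannot be told apart in such whole-sample RNA, here and for every gene below.

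Ly96, which encodes the LPS-binding subunit MD-2, gave relative signals of 2.32 and 2.17 in Aff3-/- cells, against 2.21 and 2.18 in Aff3+/- cells. The Aff3-/- replicates lay on either side of the Aff3+/- pair, whose values were close to each other. On the log2 scale the genotypes differed by 0.03 ± 0.11 (SE; limma), with a 95% interval from 0.830-fold to 1.26-fold.

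Cd14, the co-receptor that delivers LPS and a classical marker of monocytes, was close to the limit of detection. Its intensities were 20.2 and 15.3 units in Aff3-/- cells, against 9.89 and 21.9 units in Aff3+/- cells, and the lowest signal called well above background on any of the 4 arrays lay between 5.96 and 6.95 units. The probe was well above background on all 4 arrays. The lowest and the highest values both came from Aff3+/- cells, and the Aff3-/- values fell between them. In relative signal this was 0.0135 ± 0.0024 in Aff3-/- cells and 0.0120 ± 0.0060 in Aff3+/- cells (SD, n = 2 each). The log2 difference of 0.26 ± 0.39 (SE; limma) was the largest of the 10, and its 95% interval, from 0.590-fold to 2.44-fold, was the only one of the 10 that reached beyond a doubling. It rested on the dim Aff3+/- replicate 1, and without that array it was -0.27. The scanner software put the error of a Cd14 spot at 16.8% to 35.9% of its signal, whereas for the other 9 genes it was 10.0% on every array.

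Since Tlr4 and Cd14 are also genes of myeloid cells, markers of such cells were read from the same arrays. Of 10 monocyte and macrophage markers on the array, 6 were well above background on all 4 arrays and 4 on none, among them the lysozyme gene Lyz2, Fcgr1 and C1qa. The summed relative signal of the 6 was 7.96 and 7.26 in Aff3-/- cells, against 8.70 and 7.52 in Aff3+/- cells, and most of it came from the integrin gene Itgam. Of 7 neutrophil markers 4 were well above background on no array, S100a8, S100a9, Mpo and Ngp. The other 3, Csf3r, Elane and Camp, were well above background on all 4 arrays, with a summed relative signal of 75.5 and 87.8 in Aff3-/- cells, against 79.6 and 85.8 in Aff3+/- cells, most of it from Csf3r. The part of such cells in the values of Tlr4 and Cd14 was not tested.

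Cd180, the TLR4-like receptor of B cells, had relative signals of 0.421 and 0.491 in Aff3-/- cells, against 0.481 and 0.509 in Aff3+/- cells. The dimmest sample was Aff3-/- replicate 1, but the second Aff3-/- sample lay between the Aff3+/- samples, so the genotypes overlapped. The log2 difference was -0.12 ± 0.13 (SE; limma, unadjusted p = 0.41), with a 95% interval from 0.719-fold to 1.17-fold. It was the largest difference among the 9 genes other than Cd14, and without Aff3-/- replicate 1 it was -0.01. Within each replicate number the Aff3-/- sample was the dimmer one, with differences of -0.19 (log2) for number 1 and -0.05 for number 2. Such a lower value within both numbers was also seen for Ticam1 (-0.01 and -0.14), Irak1 (-0.02 and -0.05) and Irf5 (-0.002 and -0.0006). These were 4 of the 10 genes in all, and the other 6 differed in sign between the numbers. The share of all features with such agreement was not computed, so the count is no result about these genes. The fitted direction of Irf5 also turned with median scaling and with normexp.

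Its partner gene Ly86, encoding MD-1, had relative signals of 58.3 and 52.1 in Aff3-/- cells, against 57.7 and 53.3 in Aff3+/- cells. The brighter sample was again replicate 1 in each genotype, and the Aff3-/- values enclosed the Aff3+/- values. This gave a log2 difference of -0.01 ± 0.13 (SE; limma), with a 95% interval from 0.786-fold to 1.25-fold.

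The ratio of 2 genes on one array does not depend on the single factor that scales that array, so the balance within and between the receptor pairs was also compared. Such a ratio can still change with quantile normalization or normexp. The log2 ratio of Tlr4 to Ly96 differed by -0.02 between Aff3-/- and Aff3+/- cells, with SDs of 0.24 in Aff3-/- cells and 0.21 in Aff3+/- cells. That of Cd180 to Ly86 differed by -0.11, with SDs of 0.27 in Aff3-/- cells and 0.14 in Aff3+/- cells. For Tlr4 to Cd180, the signalling receptor against its relative, the difference was 0.14, with SDs of 0.47 in Aff3-/- cells and 0.28 in Aff3+/- cells. In each of these 3 ratios the difference between genotypes was smaller than the SD within either genotype, and the genotypes overlapped. The ratio of Ly96 to Ly86, the secreted partners, differed by 0.04 with SDs of 0.04 in Aff3-/- cells and 0.07 in Aff3+/- cells, also with overlap.

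**Figure D2:**
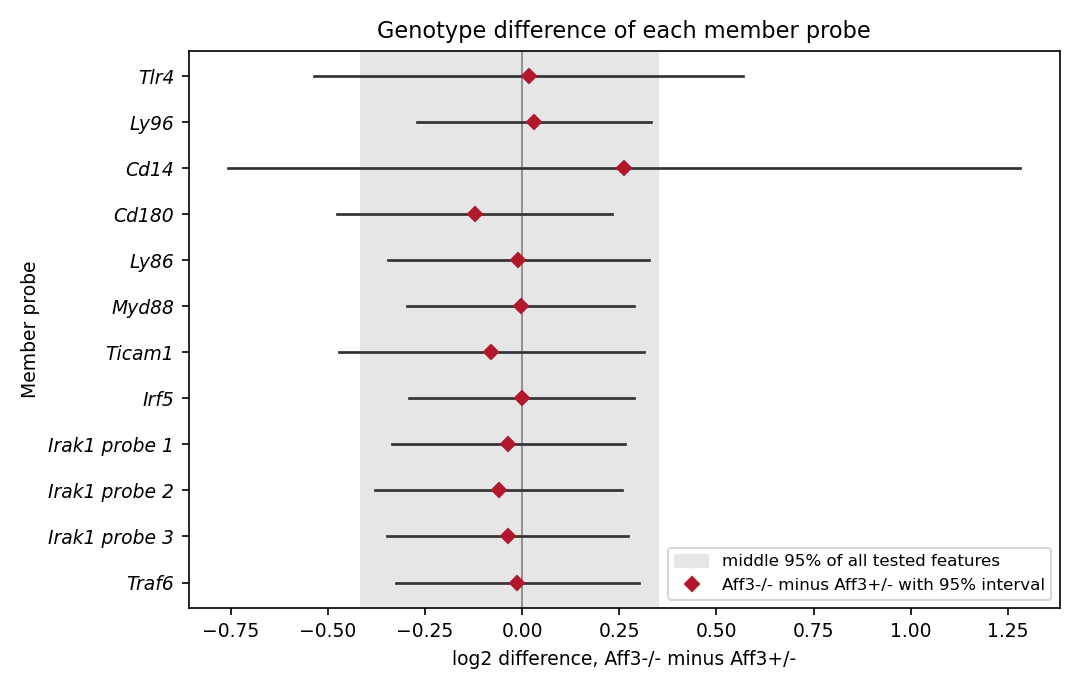
Diamonds give the log2 difference, Aff3-/- minus Aff3+/-, of each member probe, lines its 95% interval from limma fitted on all kept probes, and the grey band the middle 95% of all tested features (-0.41 to 0.35). Every interval contains 0, and all diamonds lie inside the band.

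Among the signalling genes, Myd88, the adaptor shared by most Toll-like receptors, has a probe that is printed on 10 spots of each array. Its mean relative signals were 3.22 and 3.36 in Aff3-/- cells, against 3.32 and 3.28 in Aff3+/- cells. The Aff3-/- samples were the dimmest and the brightest of the 4. The 10 spots of an array varied by 3.48% to 3.78% (coefficient of variation). On the log2 scale the SD between spots within an array was 0.053, which gives a mean of 10 spots a standard error of 0.017, and the SD between the 4 array means was 0.025. The genotypes differed by -0.004 ± 0.11 (log2, SE; limma), with a 95% interval from 0.814-fold to 1.22-fold. The interval also takes in the variance that limma shares over all features, and so is wider than the spread of the spots alone.

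**Figure D3:**
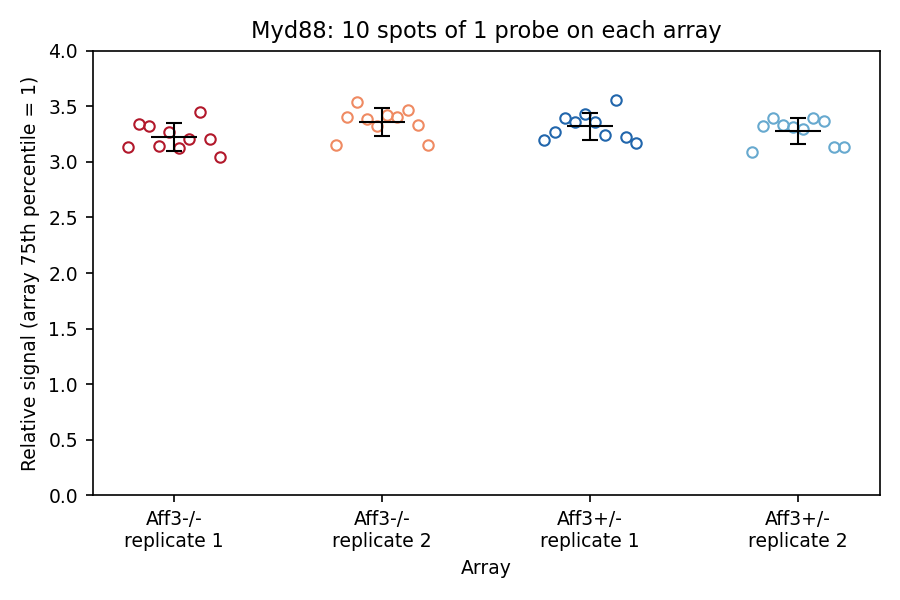
Open circles are the 10 spots of the Myd88 probe on each array in relative signal (array 75th percentile = 1), and bars give their mean and SD. The array means lie between 3.22 and 3.36, and the spots of all 4 arrays overlap.

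Ticam1, whose product TRIF carries the interferon branch of TLR4 signalling, had relative signals of 1.87 and 1.55 in Aff3-/- cells, against 1.89 and 1.71 in Aff3+/- cells. The dimmest sample was Aff3-/- replicate 2, and Aff3-/- replicate 1 lay between the Aff3+/- samples. The fitted log2 difference was -0.08 ± 0.15 (SE; limma), with a 95% interval from 0.720-fold to 1.24-fold. Without Aff3-/- replicate 2 it was 0.06. The ratio of Myd88 to Ticam1 differed by 0.08 (log2), with SDs of 0.23 in Aff3-/- cells and 0.09 in Aff3+/- cells.

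Irf5, the interferon regulatory factor that MyD88 signalling activates, varied least of the 10 genes. It had relative signals of 8.61 and 8.44 in Aff3-/- cells, against 8.63 and 8.44 in Aff3+/- cells. The samples of the same replicate number were nearly equal in the 2 genotypes. Between genotypes the log2 difference was -0.001 ± 0.11 (SE; limma), with a 95% interval from 0.817-fold to 1.22-fold.

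Irak1, the kinase recruited by MyD88, had 3 probes, of which 2 belong to 1 transcript and the remaining one to a second transcript of the gene. The brightest probe gave relative signals of 3.50 and 3.31 in Aff3-/- cells, against 3.55 and 3.43 in Aff3+/- cells, a log2 difference of -0.04 ± 0.11 (SE; limma). The probe of the second transcript gave 1.62 and 1.66 in Aff3-/- cells, against 1.62 and 1.80 in Aff3+/- cells, a log2 difference of -0.06 ± 0.12. The dimmest probe gave 0.836 and 0.789 in Aff3-/- cells, against 0.864 and 0.804 in Aff3+/- cells, a log2 difference of -0.04 ± 0.12. All 3 probes were thus fitted slightly dimmer in Aff3-/- cells, by less than their error, and in each the genotypes overlapped. The probes share their samples and are not independent replicates. For the brightest probe the 95% interval ran from 0.793-fold to 1.20-fold.

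Traf6, the ubiquitin ligase downstream of the IRAK kinases, had relative signals of 0.535 and 0.490 in Aff3-/- cells, against 0.528 and 0.504 in Aff3+/- cells. The Aff3-/- values enclosed those of Aff3+/- cells. The log2 difference was -0.01 ± 0.12 (SE; limma), with a 95% interval from 0.798-fold to 1.23-fold. For 9 of the 10 genes, all but Cd14, the interval lay within a halving and a doubling, and the widest of these 9 was that of Tlr4.

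The directions of the smallest differences turned with the scaling. Of the 10 genes 3 were higher in Aff3-/- cells with the 75th percentile, 5 with quantile normalization and 7 with either median scaling or normexp background correction, and the genes that turned were among Ly86, Myd88, Irf5 and Traf6. With median scaling Ly96 and Irf5 no longer overlapped, both higher in Aff3-/- cells, and with normexp Cd14 and Irf5 did so, where 19.9% and 21.8% of all features were without overlap.

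The other genes of the pathway were read in 6 lists, which hold 97 genes with no member among them. No gene of these lists passed the adjusted threshold (limma), over all features tested. Of the 89 genes tested 1, Il6, had an unadjusted p under 0.05 (limma), beside 2.04% of all features.

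Of the other Toll-like receptor genes, 8 of 11 were tested, and Tlr5, Tlr8 and Tlr11 were left out as dim. The fitted difference was lower in Aff3-/- cells for 7 and higher for 1, with a median of -0.09. For Tlr1, which pairs with TLR2 to bind bacterial lipopeptides, the relative signals were 3.04 and 3.04 in Aff3-/- cells, against 3.37 and 3.29 in Aff3+/- cells, with no overlap and a log2 difference of -0.13 ± 0.11 (SE; limma). Tlr3, the receptor for double-stranded RNA, was at 0.0705 and 0.0639 in Aff3-/- cells, against 0.0878 and 0.0726 in Aff3+/- cells, also without overlap (-0.25 ± 0.15). Tlr7 and Tlr9, the nucleic acid receptors of B cells, differed by 0.01 ± 0.17 and -0.02 ± 0.12. The balance of this list moved with single arrays: 6 of the 8 genes were higher in Aff3-/- cells without Aff3-/- replicate 2, and 4 of 8 without Aff3+/- replicate 1.

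Of the chaperones and LPS carriers, 7 of 8 were tested, 3 higher and 4 lower, with a median of -0.05. Unc93b1, which escorts nucleic acid receptors to endosomes, was at 23.7 and 19.4 in Aff3-/- cells, against 25.8 and 21.8 in Aff3+/- cells (log2 difference -0.15 ± 0.17, SE; limma). Hsp90b1 and Cnpy3, the endoplasmic reticulum chaperones that Toll-like receptors need to fold, differed by 0.06 ± 0.25 and 0.01 ± 0.11. All 7 genes overlapped between genotypes.

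The other adaptors, kinases and ubiquitin enzymes had 12 higher and 13 lower of 25 tested genes, with a median of -0.02 (0.006 with median scaling). The deposited table held 17 genes of the list, 2 higher and 15 lower, with a median of -0.06 beside -0.07 for all its features. Probes matched between that table and the scanner files had nearly the same values, so this is no second processing. With 15 lower there and 13 here, the 17 genes cannot all be among the 25 with the same probes. Which genes or probes differed was not examined, so the 2 counts are not comparable. Ticam2, whose product TRAM links TLR4 to TRIF, was at 0.155 and 0.127 in Aff3-/- cells, against 0.104 and 0.125 in Aff3+/- cells. Its lower Aff3-/- value barely exceeded the higher Aff3+/- value, and the log2 difference was 0.30 ± 0.17 (SE; limma, unadjusted p = 0.15). Tirap, the bridging adaptor of MyD88, differed by -0.16 ± 0.15. Slc15a4, an endolysosomal transporter needed for TLR7 and TLR9 responses, was at 10.5 and 10.8 in Aff3-/- cells, against 12.0 and 12.0 in Aff3+/- cells (-0.17 ± 0.11). Irak2 differed by -0.14 ± 0.15 for its brighter probe and by -0.30 ± 0.11 for its other probe.

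Among negative regulators of the pathway, 10 of 15 tested genes were higher and 5 lower in Aff3-/- cells, with a median of 0.02. Socs1, a suppressor of cytokine and Toll-like receptor signalling, was at 3.30 and 3.00 in Aff3-/- cells, against 2.92 and 2.69 in Aff3+/- cells, without overlap (log2 difference 0.17 ± 0.12, SE; limma). The phosphatase gene Dusp1 was at 0.421 and 0.369 in Aff3-/- cells, against 0.358 and 0.348 in Aff3+/- cells (0.16 ± 0.13). Irak3, the inhibitory IRAK, differed by -0.18 ± 0.18, and the deubiquitinating enzyme gene Tnfaip3 by 0.10 ± 0.13. The count of higher genes was 5 of 15 without Aff3-/- replicate 1 and 6 of 15 without Aff3+/- replicate 2, with medians below 0.

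The other interferon regulatory factor genes numbered 7, with 2 higher, 5 lower and a median of -0.03. With normexp 4 were higher, with a median of 0.002, and leaving out 1 array gave 1 to 5 higher, the lowest without Aff3-/- replicate 1 and the highest without Aff3-/- replicate 2. Irf7, which drives interferon production, was at 3.57 and 3.53 in Aff3-/- cells, against 3.99 and 3.61 in Aff3+/- cells, without overlap (log2 difference -0.10 ± 0.12, SE; limma). Irf4, a factor of plasma cell differentiation, differed by 0.11 ± 0.13.

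Genes that LPS induces in B cells were read as the output of the pathway, and this list shares genes with lists already compared on these samples, so its direction is no independent evidence. Of 27 tested genes 19 were higher and 8 lower, with a median of 0.08. The deposited table held only 10 genes of the list. Of these 3 were higher, with a median of -0.09 beside -0.07 over all its features. Matched probes had nearly the same values there, so this counts a part of the list and is no second processing. Il6, the cytokine gene, was at 4.87 and 4.58 in Aff3-/- cells, against 3.16 and 3.67 in Aff3+/- cells, with no overlap (log2 difference 0.47 ± 0.13, SE; limma). Nfkb2, an NF-kB subunit gene, was at 9.21 and 8.91 in Aff3-/- cells, against 7.47 and 7.94 in Aff3+/- cells, also without overlap (0.23 ± 0.11). In the other direction, the ligand gene Icosl was at 0.836 and 0.846 in Aff3-/- cells, against 1.26 and 0.912 in Aff3+/- cells (-0.35 ± 0.19). The chemokine gene Ccl5 was at 31.3 and 30.2 in Aff3-/- cells, against 39.0 and 32.4 in Aff3+/- cells (-0.21 ± 0.14). For all 4 of them the adjusted p was 1.00 (limma). The list's balance was 13 higher and 14 lower without Aff3-/- replicate 1, with a median of -0.002.

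Markers of other cell types were read beside these lists, and 0 of them passed the adjusted threshold (limma). Of 10 tested T cell markers 6 were higher and 4 lower, with a median of 0.20. Of the 10, 3 were higher without overlap, beside 8.35% of all features. Among the higher ones, Cd8a and Cd8b1 (log2 differences 1.01 and 0.50) were not well above background on Aff3+/- replicate 1. The other Cd8a probe differed by 0.49. Thy1, a surface marker of T cells with the largest difference of the list, was at 1.04 and 1.16 in Aff3-/- cells, against 0.358 and 0.744 in Aff3+/- cells (log2 difference 1.09 ± 0.37, SE; limma). The lower ones were Cd3e (-0.11), Lck (-0.10), Cd4 (-0.09, and 0.04 for its other probe) and Lat (-0.07). Of the 11 in the list 8 were well above background on all arrays, and the summed signal of the 10 tested was 10.2 and 9.84 in Aff3-/- cells, against 10.1 and 10.0 in Aff3+/- cells. Of 4 tested dendritic cell markers 2 were higher and 2 lower, with a median of 0.20. The higher ones were the transcription factor genes Zbtb46 and Batf3. Zbtb46 was at 0.128 and 0.106 in Aff3-/- cells, against 0.0754 and 0.0869 in Aff3+/- cells (0.52 ± 0.16). Its other probe differed by 0.24 ± 0.12. Batf3 was at 1.44 and 1.23 in Aff3-/- cells, against 0.921 and 1.08 in Aff3+/- cells (0.42 ± 0.15). The lower ones were Siglech (-0.11) and Flt3 (-0.02, and -0.16 for its other probe). The 4 dendritic cell markers summed to 94.9 and 90.6 in Aff3-/- cells, against 103.7 and 94.1 in Aff3+/- cells, most of it from the lower ones. Clec9a, Itgax and Xcr1 were well above background on no array. Both tested NK cell markers, of 7, were lower, with a median of -0.09 and a summed signal of 2.31 and 1.89 in Aff3-/- cells, against 2.31 and 2.14 in Aff3+/- cells. Unadjusted p (limma) was under 0.05 for Thy1, Batf3 and the brighter Zbtb46 probe, but not for the other Zbtb46 probe, beside 2.04% of all features. The part of such cells in the differences of Il6 and the other genes was not tested.

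**Figure D4:**
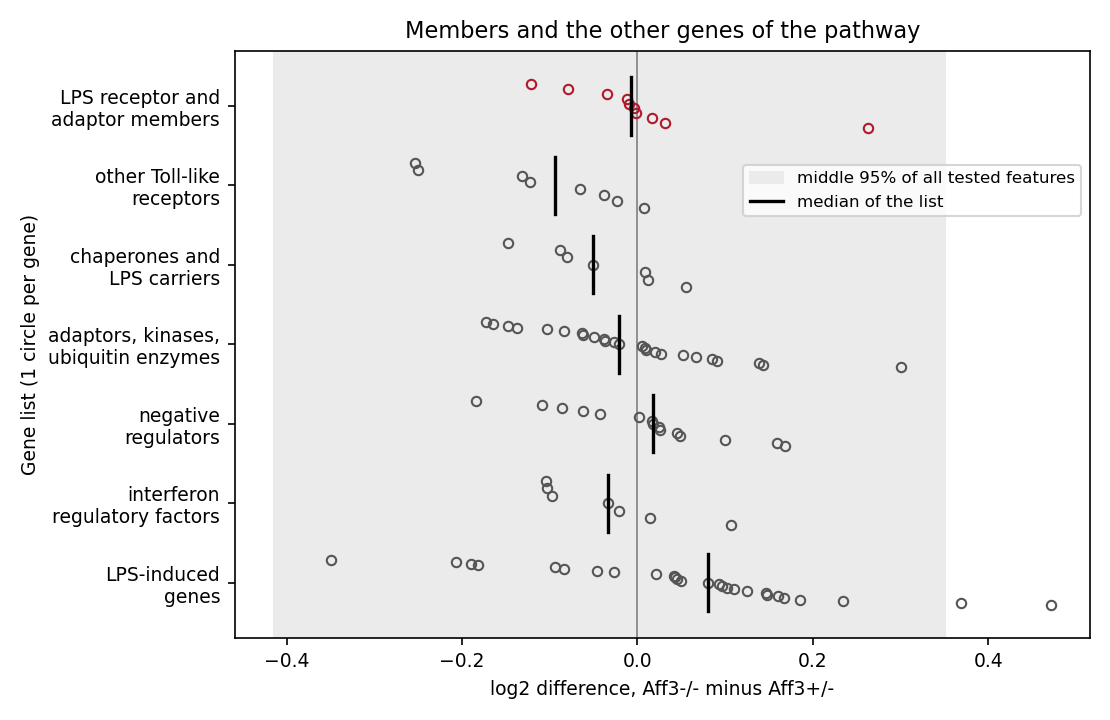
Each circle is 1 gene's log2 difference, Aff3-/- minus Aff3+/-, with the 10 members in red and the genes of the 6 pathway lists in grey; vertical bars are the medians and the grey band is the middle 95% of all tested features. List medians lie between -0.09 and 0.08, and 2 of the grey circles, Bcl2l1 and Il6, lie outside the band.

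Genes with a pattern like that of a member were sought by the distance between the 4 log2 values, each centred on its own mean. The search took only named genes whose SD over the 4 arrays was at least that of the member, so less variable genes were left out. The nearest to Tlr4 among them were Xpr1, Kcnk13 and Fam3a, at root mean square distances of 0.0047, 0.0057 and 0.0058. For Cd180 they were Fbxo22, Armh3 and Dbnl, at 0.0090, 0.013 and 0.018. With 4 arrays, 3146 candidate genes for Tlr4 and 7292 for Cd180, such closeness is a description of these samples only.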

How the data were processed

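Per the labels' protocols, total RNA of each sample was labelled with Cy3. Per the file headers, the authors read 1 array per sample with Agilent Feature Extraction 10.7.1.1 (version also in the submitters' processing notes), and the deposited processed, median and background signals and the signal error are intensity values on a linear scale, with no normalization between arrays. A second deposited table holds log2 values centred on each row's median, with array scaling not stated. For 14151 matched probes its values followed the scaled scanner values with a correlation of 1.00 on every array. The median shifts were -0.013 to 0.012, so it is no separate check of the scaling. Its column medians were -0.04, 0.02, 0.13 and -0.03 for Aff3-/- replicates 1 and 2 and Aff3+/- replicates 1 and 2.

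Control and outlier spots were left out, log2 signals were scaled to each array's 75th percentile, and spots of a probe were averaged. Probes were kept when both arrays of 1 genotype or more showed them well above background, and a gene was its probe of highest mean signal. Transcript accessions named 26581 of 39429 probes through the RefSeq table of GRCm38.p6, used for names only because the array design cites another build. Differences came from limma 3.58.1 in R 4.3.3 (lmFit, eBayes, two-sided, Benjamini-Hochberg), tested on simulated data. All 4 arrays shared 1 slide and 1 scan and the labels give no batch, so the main fit held genotype only. The SEs and intervals printed therefore leave out the replicate numbers, although same-numbered arrays deviated together. No 2 arrays were identical. Members and gene lists were chosen with earlier results of these data known. Genes named were the members and, of each list, mainly those of smallest unadjusted p. Hsp90b1, Cnpy3, Tlr7, Tlr9, Irak2 and Tnfaip3 are further examples, picked with their values known. Markers of B, myeloid, dendritic, T and NK cells were read in the same fit. Thy1, Zbtb46, Batf3 and the other T and dendritic cell markers given with a difference were named after their values were seen. Alternatives covered background, scaling, filter, probe rule, variance model, replicate block and leaving out each array. Some marker genes are not reported here.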

Additional observations from a re-analysis of the deposited data

How the results depend on the processing

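Under every alternative run, 0 features and 0 member genes passed the adjusted threshold (limma), among them every probe as a feature of its own and each array left out in turn; the smallest adjusted p of any feature was 0.15. Settings that kept all 4 arrays gave 85 member differences, of which 49 were identical by construction; of the 36 that could change, 10 turned direction. With normexp (run on the median spot signal, since the files give no mean) Ly86 was at a difference of 0.0018, Myd88 at 0.016, Irf5 at 0.030 and Traf6 at 0.00075. With quantile normalization Ly86 was at 0.020 and Traf6 at 0.010. With median scaling Ly86 was at 0.017, Myd88 at 0.023, Irf5 at 0.025 and Traf6 at 0.015. The number of member genes without overlap, 0 in the report, was 2 with normexp, 2 with median scaling and 1, Irak1, when the probes of each gene were averaged. It was 2 to 8 when an array was left out, where a lone array separates more easily and 45.5% to 73% of all features did so. Leaving out 1 array at a time gave log2 differences of -0.21 to 0.24 for Tlr4, -0.018 to 0.082 for Ly96, -0.27 to 0.80 for Cd14, -0.23 to -0.01 for Cd180, -0.091 to 0.071 for Ly86, -0.033 to 0.025 for Myd88, -0.22 to 0.057 for Ticam1, -0.017 to 0.014 for Irf5, -0.076 to 0.0055 for Irak1 and -0.076 to 0.051 for Traf6, with the lone array assumed to vary like the other genotype. The deposited values held probes of 5 of the 10 genes. Their differences, counted among the 36, were nearly those of the main scaling (for Cd180 -0.122 in both), so they could hardly turn. The genotypes share replicate numbers, and the deviations of same-numbered arrays correlated at 0.56 across features, but the labels tie the numbers to no litter or day. With the replicate block, again 0 features and 0 member genes passed, and the smallest adjusted p of a member was 0.88, for Cd180. The block left the differences as they were but changed their SEs (limma). For Tlr4 the SE was 0.08 with the block and 0.21 without it, for Ticam1 0.08 and 0.15, and for Cd14 0.39 in both fits. The block takes the mean difference between the replicate numbers out of the residual spread. What lies behind that difference was not tested. Precision is limited by 2 arrays per genotype and, for Cd14, by signal near background.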

Other observations

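The samples of the 2 replicate numbers differed more than the genotypes did, in the LPS receptor and adaptor genes and in the series as a whole. Of the 8 genes without overlap between the numbers, 7 were brighter on the arrays numbered 1, and Cd180 was brighter on the arrays numbered 2. Over all features 64.3% were without overlap between the numbers in either direction. The share by direction was not computed, so the count by direction is no result about these genes. Tlr4 showed the largest difference among the 8 genes, -0.38 (log2, number 2 minus number 1), with -0.44 in Aff3-/- cells and -0.31 in Aff3+/- cells. Cd180 differed by 0.15, with 0.22 in Aff3-/- cells and 0.08 in Aff3+/- cells. In absolute size the median difference between the numbers was 0.12 for the 10 genes and 0.16 over all features, against 0.02 and 0.07 between the genotypes. The labels do not say what the numbers stand for, and what separates them was not tested.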
